A study of Mus musculus with 8 samples.

Results

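The clustered protocadherins are 58 genes that lie in 3 neighbouring groups, alpha, beta and gamma, on mouse chromosome 18. SMCHD1 at these genes was examined in the listed regions whose windows overlap positions 36930285 to 37850000 of chromosome 18 (GRCm38), which are 10 of 2840 regions in all. A listed region is a published SMCHD1 peak, and its window is that peak widened by 5000 bp on either side. By the position of the peak, 7 regions were placed in the alpha cluster, 2 between the alpha and beta clusters, 1 in the beta cluster and 0 in the gamma cluster.

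Levels of SMCHD1 were measured by ChIP-seq with an antibody to GFP, in which DNA bound by a GFP-tagged protein is recovered and sequenced. The cells were primary neural stem cells (NSCs) of female C57BL/6J mice, grown for under 10 passages from the cortices of E14.5 embryos, with GFP fused to the endogenous SMCHD1 protein in every line. Wild-type cells (Smchd1GFP+/+, 3 lines) were compared with *MommeD43* cells (Smchd1GFPMommeD43/MommeD43, 3 lines), which are homozygous for a missense change in the extended ATPase domain that was remade by genome editing on the tagged allele. The question was whether the mutant protein occupies the same sites at the same level. The deposited values are the authors' merged log2 normalized counts, 1 for each region and genotype, and the 1 whole cell extract library of each genotype was not analysed here. Whole cell extract was not subtracted from the counts. A level here is thus the count over a whole window, and the part of it that is background was not measured. With a single merged value, the variation among the 3 lines is not seen and genotypes were not tested. The wild-type ChIP-seq data were published earlier than the *MommeD43* data and no batches are given, so genotype and batch cannot be told apart.

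Clustered protocadherins are cell surface adhesion proteins of neurons, and the combination that a neuron expresses helps its branches tell self from non-self. In the alpha and gamma clusters, each large variable first exon has its own promoter and is spliced to constant exons shared by the whole cluster, whereas each beta gene is a single exon. Most of these promoters are chosen at random in each neuron, with the help of CTCF and cohesin, while the C-type genes at the end of the alpha and gamma clusters (*Pcdhac1* among them) are expressed more evenly. SMCHD1 is a chromatin protein related to the SMC family and is known as a repressor of the clustered protocadherins, of the inactive X chromosome and of some imprinted genes.

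The listed regions lie in the proximal part of the locus. The regions are numbered 1 to 10 here in their order along the chromosome. Their windows covered 69.5 kb, or 7.56% of the locus. Of 58 protocadherin start sites in the GENCODE annotation, 7 lay inside a window: 5 neighbouring alternate genes of the alpha cluster (*Pcdha8* to *Pcdha12*), the C-type gene *Pcdhac1* and the beta gene *Pcdhb2*. The start sites of *Pcdha1* to *Pcdha7*, of *Pcdhac2*, of the other 21 beta genes and of all 22 gamma genes lay outside the windows, as did the 3 constant exons of the alpha cluster and the 3 of the gamma cluster. After region 10 the next listed window on the chromosome was 1296 kb away, beyond the end of the gamma cluster, at *Spry4*. On the other side, the 2 nearest listed peaks (36903301 to 36903900 and 36904051 to 36904950) lay before *Pcdha1* and overlapped no annotated gene. SMCHD1 outside the listed windows was not measured in these values, so they say nothing of the level at the other genes.

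**Figure D1:**
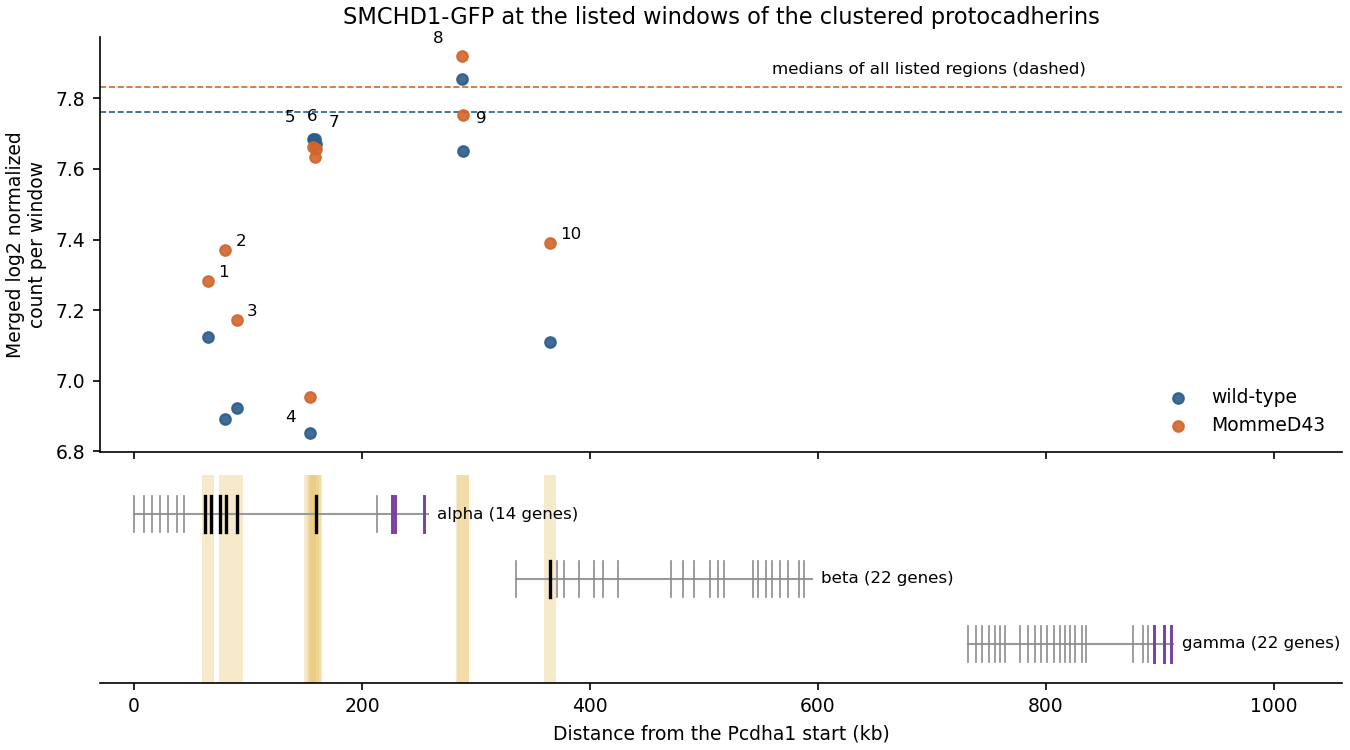
Upper panel, the authors' merged log2 normalized count of each window in wild-type (blue) and MommeD43 (orange) NSCs against the distance of its peak from the Pcdha1 start in kb, with dashed lines at the medians of all 2840 regions (7.76 and 7.83). Lower panel, start sites of the 3 clusters (black where inside a window, grey where not), constant exons (purple) and the windows (yellow), which leave the gamma cluster uncovered.

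In the alpha cluster, regions 1 to 3 lie among the alternate genes *Pcdha8* to *Pcdha12*, whose promoters are chosen at random in neurons. The peak of region 1 (36994951 to 36995400, 450 bp) lies 2480 bp before the *Pcdha9* start, past the end of the *Pcdha8* variable exon, and its window holds the variable exons of both genes in full. The peak of region 2 (37009801 to 37010250, 450 bp) lies 462 bp before the *Pcdha11* start, and its window holds the variable exons of *Pcdha10* and *Pcdha11*. The gene with its start at 37005203 is *Pcdha10* in RefSeq and carries the symbol *Pcdha11* in GENCODE (ENSMUSG00000007440), and the RefSeq name is used. The peak of region 3 (37020151 to 37020450, 300 bp) begins 2 bp past the *Pcdha12* start and lies inside its variable exon. The peaks of regions 2 and 3 also overlap *Gm10545*, an antisense transcript. Every protocadherin peak, also those between the clusters and in the beta cluster, overlaps the annotated genes *Gm42416*, *Gm37013* and *Gm37388*. Regions 4 to 7 lie around *Pcdhac1*, and their windows overlap one another in turn. Their peaks are 37084201 to 37084500, 37087351 to 37087800, 37088851 to 37089150 and 37089751 to 37090200, and the last of these holds the *Pcdhac1* start at 37090013. Because the alpha genes share their constant exons, every one of these 7 peaks also lies within the bodies of genes that start before it, from 8 genes at region 1 to 12 at regions 3 to 7, in their introns except for *Pcdha12* at region 3.

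Between the clusters, the peaks of region 8 (37217401 to 37218600, 1200 bp) and region 9 (37218901 to 37219350, 450 bp) are 300 bp apart, and the first of them begins 29.7 kb past the last base of the alpha cluster. The nearest start site after them is that of *Pcdhb1*, 45.6 kb from the peak of region 9. The interval between the alpha and beta clusters is known to hold an enhancer of alpha genes, but its position is not in the annotation, and overlap with these peaks was not examined. In the beta cluster, the peak of region 10 (37294651 to 37295100, 450 bp) holds the *Pcdhb2* start at 37294812. The 10 windows form 5 groups with no shared bases (region 1, regions 2 and 3, regions 4 to 7, regions 8 and 9, and region 10), and within a group the same reads are counted in several windows. Regions 2 and 3 share only 100 bp.

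The SMCHD1 counts at the protocadherin regions were of ordinary level among the listed regions. The median over the 10 regions was 7.39 in wild-type cells and 7.51 in *MommeD43* cells, against 7.76 and 7.83 over all 2840 regions. In wild-type cells 41.2% of all regions lay below the protocadherin median, and in *MommeD43* cells 42.6%. Per kb of window the positions were nearly the same (41.4% and 43.0%). The other 86 regions of chromosome 18 had medians of 7.56 and 7.60. Higher medians were found at the 168 regions of the 4 *Hox* clusters, another group of clustered SMCHD1 targets, with 10.17 in wild-type cells and 10.36 in *MommeD43* cells. The 3 regions at the imprinted *Snrpn* cluster (at *Ndn*, *Mkrn3* and *Peg12*) had medians of 8.28 and 8.32. On a linear scale, the 10 protocadherin regions (0.352% of the regions) took up 0.179% of the summed signal in each genotype. Overlapping windows count the same reads more than once, so no interval is given. With each base of overlapping windows counted once, the share was 0.169% in wild-type cells and 0.179% in *MommeD43* cells.

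The depth behind these values can be recovered from the lowest values of each column, which fix the read count that a value stands for. The protocadherin regions held a median of 124 reads per wild-type library and 114 per *MommeD43* library (a geometric mean over 3 libraries), with ranges of 84.0 to 169 and 77.3 to 151. Counting error alone then gives the difference between genotypes at a region an SD of 0.09 to 0.13 on the log2 scale. This counting SD is a lower bound, because neither differences among lines nor PCR duplicates enter it. All 10 protocadherin regions were among the 2824 whose wild-type value exceeded 4, and over these 2824 the differences between genotypes had an SD of 2.16 counting SDs. A difference is said here to exceed counting error where its 95% counting interval leaves out 0, which is not a test of genotype.

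In wild-type NSCs the levels are described here as 2 tiers, parted at the largest gap in their order. The upper tier comprised regions 8, 5, 6, 7 and 9, between 7.86 and 7.65, and the lower tier regions 1, 10, 3, 2 and 4, between 7.12 and 6.85. That gap was 0.53, or 4.91 counting SDs, while no other neighbours in this order without shared bases differed beyond counting error. Because the boundary was placed at this gap, its size in counting SDs describes the split and does not test it. With its overlapping windows joined, the upper tier is only 2 separate stretches. Region 4 of the lower tier shares 7150 bp with region 5 of the upper tier, so the tiers are not separate sets of places. The upper tier holds the 3 windows over the *Pcdhac1* start and the 2 between the clusters. The lower tier holds the windows at the alternate alpha genes, at *Pcdhb2* and before *Pcdhac1*. In *MommeD43* NSCs the same 5 regions were the highest, in the order 8, 9, 5, 7 and 6 from 7.92 to 7.63, followed by regions 10, 2, 1, 3 and 4 from 7.39 to 6.95. The step from region 6 to region 10 was 0.25, or 2.22 counting SDs, and that from region 3 to region 4 was nearly as large at 0.22, or 1.69 counting SDs. Apart from regions 6 and 10, no neighbours without shared bases differed beyond counting error. The step between the tiers was thus smaller in *MommeD43* cells. The wild-type boundary was chosen for its size, and the 2 steps lie between different regions, so they do not compare the genotypes. Regions 9 and 1, which part the tiers in wild-type cells, had 7.75 and 7.28 in *MommeD43* cells. For windows that overlap, such as regions 8 and 9 (0.17 apart in *MommeD43* cells), the counting SD of a gap in level is an upper bound, since the shared reads cancel, and their order was not judged by it. The SD across the 10 regions was 0.40 in wild-type cells and 0.30 in *MommeD43* cells. In the mean level of both genotypes, the listed regions nearest to the median of the locus were a window at *Gfm2* (7.49 and 7.40) just below and a window over no protein-coding gene (7.46 and 7.45) just above.

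At the alternate alpha genes, the SMCHD1 count in region 2 was higher in *MommeD43* cells beyond counting error under every scaling tried. Region 3 exceeded counting error only on the scale of the deposited values and after a fit on level, and region 1 did not exceed it. Region 2, at *Pcdha10* and *Pcdha11*, had a value of 6.89 in wild-type cells and 7.37 in *MommeD43* cells, a difference of 0.48 (95% counting interval 0.24 to 0.72) or 39.5% on the linear scale. This was the largest difference in the locus. A smaller difference was found in 98.5% of all listed regions, and in 97.7% of the 620 other regions whose level was within 0.5 of the median of the locus. Region 3, at *Pcdha12*, had 6.92 and 7.17, a difference of 0.25 (0.01 to 0.50). Region 1, at *Pcdha8* and *Pcdha9*, had 7.12 and 7.28, and its difference of 0.16 (-0.07 to 0.39) was within counting error.

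At *Pcdhac1*, the C-type gene, no region differed between genotypes beyond counting error. The 3 windows over its start had 7.69 in wild-type cells and 7.66 in *MommeD43* cells at region 5, 7.68 and 7.63 at region 6, and 7.67 and 7.66 at region 7. The differences were -0.02, -0.05 and -0.01, each with a counting interval that included 0, and the lowest bound of the 3 intervals was -0.25. These windows share most of their bases and are close to a single measurement. Region 4, with its peak 5513 bp before the start, had 6.85 in wild-type cells and 6.95 in *MommeD43* cells, a difference of 0.10 (-0.15 to 0.36).

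Between the clusters the difference was within counting error in both regions, and at the beta region it exceeded counting error on the scale of the deposited values. The difference of region 8 becomes -0.01 once the median difference of all regions is subtracted. Region 8 had 7.86 in wild-type cells and 7.92 in *MommeD43* cells, a difference of 0.07 (-0.12 to 0.25). Region 9 had 7.65 and 7.75, a difference of 0.10 (-0.09 to 0.30). The *Pcdhb2* start in region 10 had 7.11 and 7.39, a difference of 0.28 (0.05 to 0.51) or 21.4% on the linear scale, larger than in 92.2% of all regions. No value of the gamma cluster can be given, since no listed window overlaps it.

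**Figure D2:**
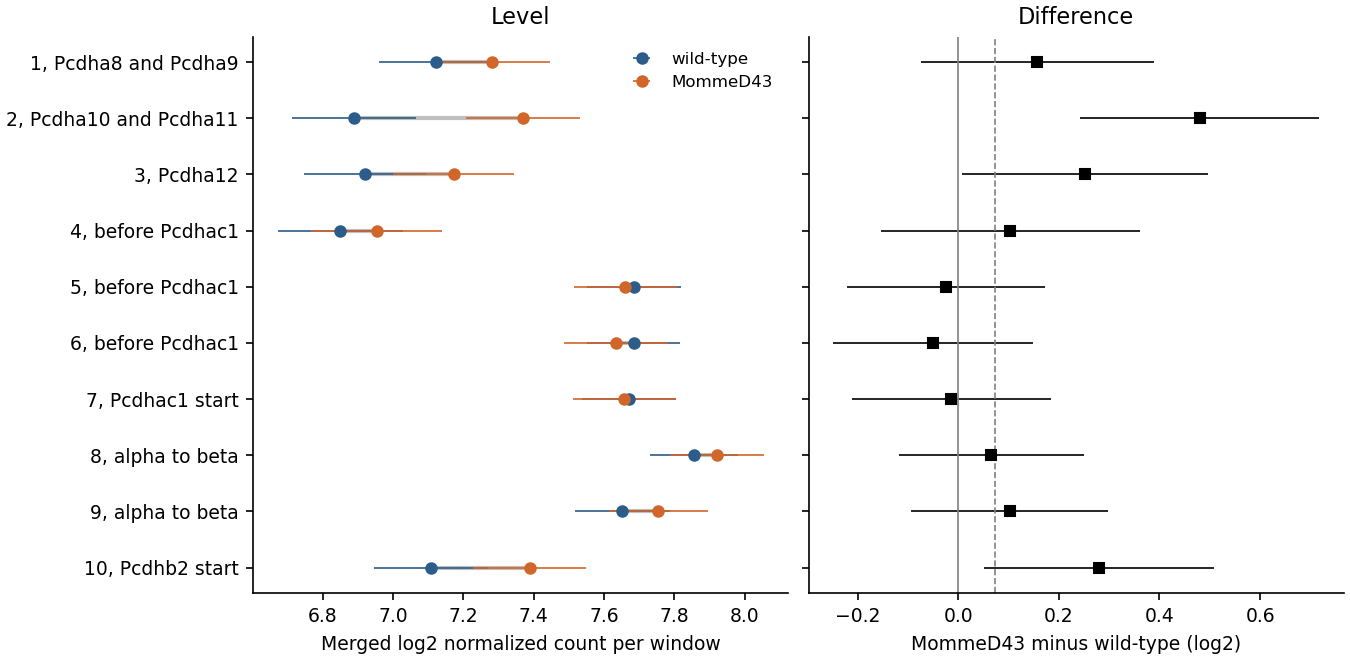
Left, the authors' merged log2 normalized count of each protocadherin region in wild-type (blue) and MommeD43 (orange) NSCs; right, the difference MommeD43 minus wild-type on the log2 scale, with lines at 0 and, dashed, at the median difference of all regions (0.07). Bars are 95% counting intervals, a lower bound on the error, and regions 2, 3 and 10 have intervals of the difference above 0.

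By cluster, the median difference was 0.10 over the 7 alpha regions, 0.08 over the 2 regions between the clusters and 0.28 at the single beta region. Within alpha the median was 0.25 over the 3 regions of the alternate genes and -0.02 over the 4 regions around *Pcdhac1*, and of the alternate regions region 2 alone stood apart from the *Pcdhac1* regions beyond counting error. Of the 37 pairs of protocadherin regions that share no bases, 8 pairs differed in their difference between genotypes beyond counting error, against 22.5% of such pairs over all listed regions, so the count of pairs is near the background. Region 2 was in 6 of these 8 pairs, and region 10 with region 5 or 6 made up the others. Region 2 exceeded region 7, at the *Pcdhac1* start, by 0.49 (0.18 to 0.80), and it exceeded region 8 by 0.41 (0.11 to 0.71). Against region 10 the gap was 0.20 (-0.13 to 0.53), so the largest differences of the alpha and beta clusters were not told apart. Regions 1 and 3 did not stand apart from the *Pcdhac1* regions beyond counting error, with gaps to region 7 of 0.17 (-0.13 to 0.48) and 0.27 (-0.05 to 0.58).

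Over the whole locus 7 of 10 regions were higher in *MommeD43* NSCs, against 66.0% of all listed regions, a share near the background. Once the median difference of all regions was subtracted, 6 of 10 were higher. On that scale as many listed regions lie above 0 as below it by construction. Beyond counting error, 3 of 10 regions were higher (regions 2, 3 and 10) and 0 were lower, against 27.4% and 4.23% of all listed regions. These shares too are close to those of all listed regions. The median difference was 0.10 over the protocadherin regions, 0.07 over all regions and 0.03 over the other regions of chromosome 18, and 57.5% of all regions had a difference below the protocadherin median. Among the 620 other regions of similar level, the median difference was 0.02 and 54.5% were higher in *MommeD43* NSCs, 15.2% beyond counting error. The protocadherin values lay above these 3, but they rest on 10 regions in 5 groups and the gap was not tested.

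The number of regions beyond counting error depends on where the difference is set to 0. With the median difference of all regions subtracted, 1 of 10 protocadherin regions (region 2, by 0.41) was higher beyond counting error and 0 were lower, against 14.9% and 9.75% of all regions. The median difference then fell to 0.03 over the protocadherin regions and over the alpha regions, and to 0.01 between the clusters. Region 3 was then higher by 0.18 and region 10 by 0.21, both within counting error. After a local fit of the difference on level over the listed regions, regions 2, 3 and 10 stood 0.48, 0.25 and 0.27 above the fit, each beyond counting error. After a local fit on GC content they stood 0.40, 0.20 and 0.26 above it, and region 3 was within counting error. The share of all listed regions beyond counting error is not given for either fit, so these calls have no background beside them. Region 2 thus exceeded counting error under every scaling tried, and the 3 windows over the *Pcdhac1* start were below 0 under each of them.

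**Figure D3:**
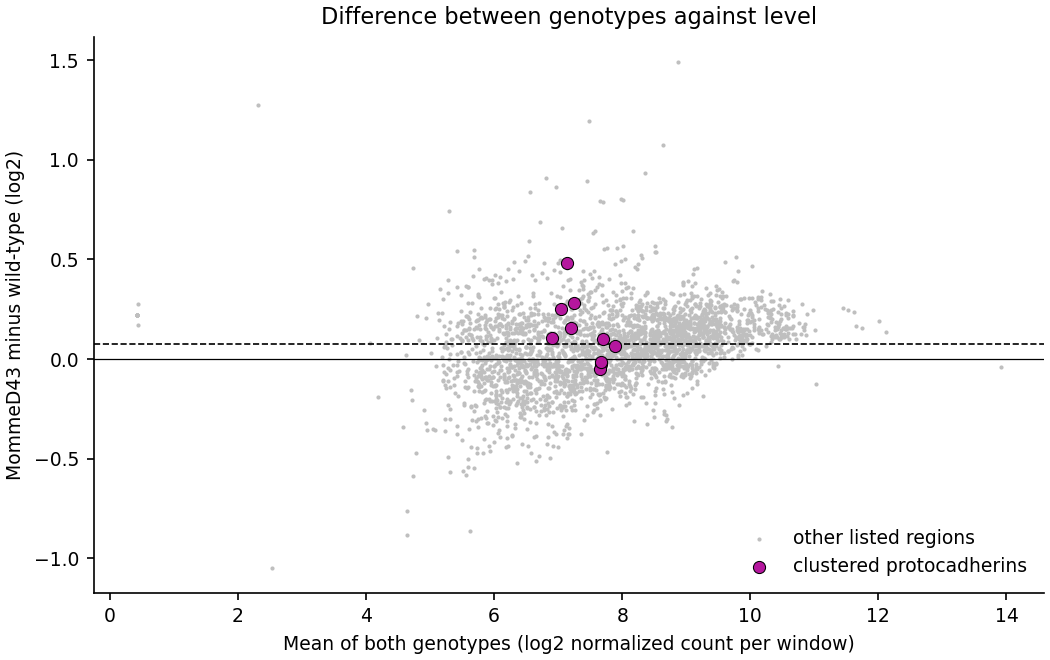
Difference MommeD43 minus wild-type (log2) against the mean of both genotypes for the 10 protocadherin regions (magenta) and the other 2830 listed regions (grey), with a solid line at 0 and a dashed line at the median of all regions (0.07). The protocadherin regions lie between -0.05 and 0.48, within the range of other regions of the same level.

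The overlap of the windows around *Pcdhac1* allows a comparison of the stretches that each window holds alone. The window of region 4 ends at 37089500, before the *Pcdhac1* start, and that of region 5 reaches past the end of its variable exon. They share 7150 bp and differ by 3150 bp (37079201 to 37082350) held by region 4 alone and 3300 bp (37089501 to 37092800) held by region 5 alone. Region 5 had 65.8 more reads per library than region 4 in wild-type NSCs (150 against 84.0) and 48.9 more in *MommeD43* NSCs (126 against 77.3). The counting SD of these gaps was at most 8.83 and 8.24 reads. The 3300 bp with the start and variable exon of *Pcdhac1* therefore held more reads than the 3150 bp upstream in both genotypes. Windows 5, 6 and 7, which all hold that stretch, differed from each other by -2.35 to 2.08 reads. Read counts here are geometric means over libraries, so the gaps are approximate. Between the clusters, the reads of region 9 minus those of region 8 were -22.1 in wild-type cells (counting SD at most 10.2) and -16.5 in *MommeD43* cells (at most 9.76). The stretch held by region 8 alone is the longer, 1500 bp against 750 bp.

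**Figure D4:**
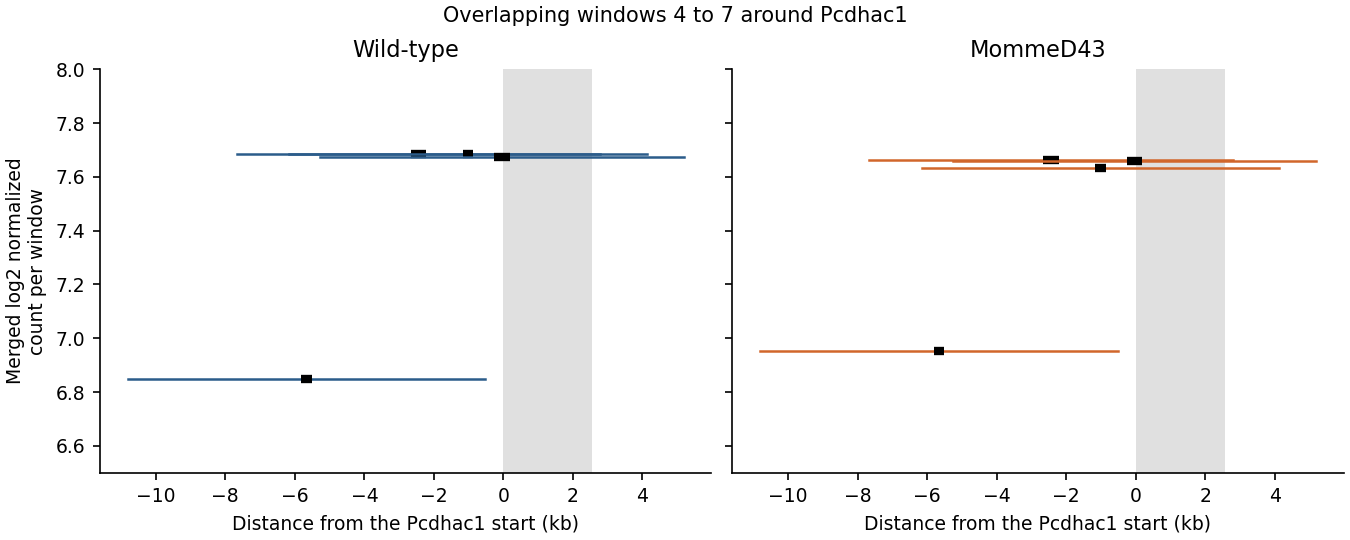
Overlapping windows of regions 4 to 7 (coloured lines) and their peaks (black bars) against the distance from the Pcdhac1 start in kb, drawn at the authors' merged log2 normalized count of each window in wild-type and MommeD43 NSCs. The variable exon of Pcdhac1 is grey, and the 3 windows that cover it sit at 7.63 to 7.69 while the window that ends before it sits at 6.85 and 6.95.

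The peaks differed in base composition by where they lie. The peaks at the starts of *Pcdha12* and *Pcdhac1* had GC contents of 59.3% and 62.0%, higher than 92.7% and 94.6% of all listed peaks, and CpG observed over expected ratios of 0.68 and 0.58. The 162 listed peaks that hold the start of a protein-coding gene had medians of 58.8% and 0.72. Their ranges were 33.0% to 75.3% and 0.09 to 1.06. The values of both peaks lie within these ranges, although the *Pcdha12* peak begins 2 bp past the start and does not hold it. The peak at the *Pcdhb2* start, which it holds, had 46.2% GC and a CpG ratio of 0.57, both below those medians. The peak of region 8, which is far from any protocadherin start, had 44.5% and 0.74. The other 6 peaks were AT-rich, at 30.7% to 41.3% GC with CpG ratios of 0.09 to 0.32, beside medians of 41.0% and 0.22 over all listed peaks. CpG-rich peaks were thus found at 3 gene starts and in the interval between the alpha and beta clusters. A start of any protein-coding gene lay inside 2 of the 10 peaks, against 5.70% of all listed peaks. In the whole windows the CpG ratio was highest where variable exons are close together, 0.58 in region 1 and 0.55 in region 2, above 96.2% and 94.4% of all windows.

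**Figure D5:**
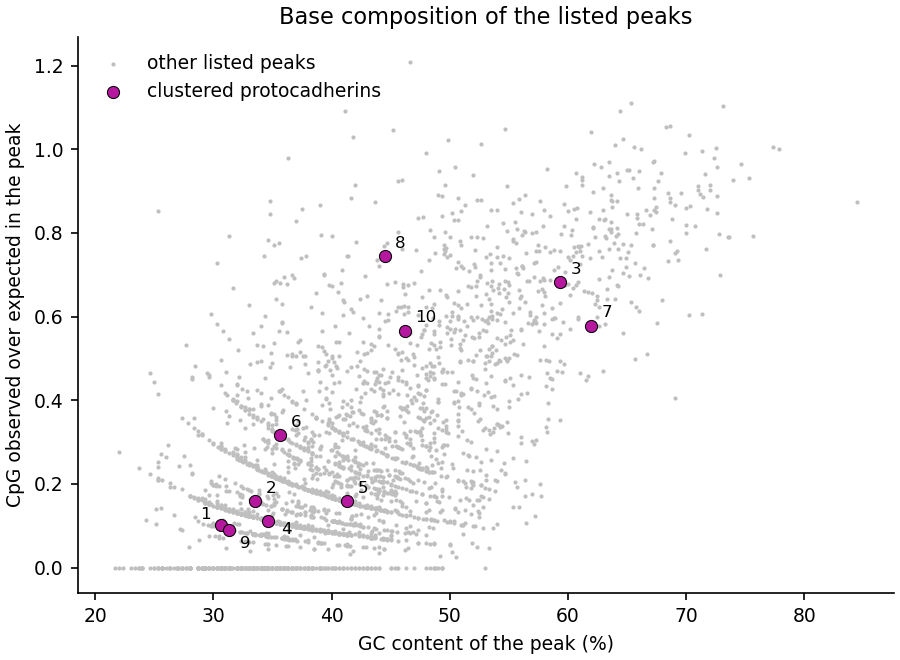
CpG observed over expected against GC content (%) of each listed peak, with the 10 protocadherin peaks in magenta and numbered by region and the other listed peaks in grey. Peaks 3, 7, 8 and 10 have CpG ratios of 0.57 to 0.74 and the other 6 protocadherin peaks 0.09 to 0.32.

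The protocadherin promoters are known for binding sites of CTCF, and AGGNGGC, a piece of the CTCF consensus, was searched on both strands. It occurred in 4 of the 10 peaks, with 2 matches each at *Pcdha12*, at the *Pcdhac1* start and in region 8 and 1 match in region 4. Over all listed peaks 25.1% held a match, but long peaks match more often. A match was found in 2 of 3 protocadherin peaks of 300 bp (8.76% of all listed peaks of that length), in 1 of 6 of 450 bp (17.2%) and in the 1 of 1200 bp (68.6%). A match is a description of the sequence and not a binding site.

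Repeated sequence can add or remove reads, so each window was searched for 75-mers found at a single place in the genome. Such unique 75-mers made up 100% of regions 4 to 7 and 99.7% of region 10. More repeated sequence was found in regions 1, 2, 3, 8 and 9, with 96.0%, 93.9%, 89.7%, 93.9% and 88.7% unique 75-mers, beside a median of 99.3% over all listed windows. Regions 2, 3 and 10, with the largest differences between genotypes, thus span the range from 89.7% to 99.7%. The part of repeated sequence in the levels was not tested.

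Among related genes, non-clustered protocadherins, which lie singly in the genome, were also overlapped by listed windows. Of 12 such genes 6 had a region (*Pcdh7*, *Pcdh8*, *Pcdh9*, *Pcdh10*, *Pcdh15* and *Pcdh17*), with 18 regions in all. Their medians were 8.45 in wild-type cells and 8.58 in *MommeD43* cells, both above those of the clustered genes. These medians count 4 overlapping windows at the *Pcdh7* start and 4 at the *Pcdh17* start, and were not recomputed with overlapping windows joined. Every window over a gene start lay above the clustered medians. Windows without a start had 6.38 to 6.76 in wild-type cells inside *Pcdh7*, *Pcdh9* and *Pcdh15*, below every clustered region. Those at *Pcdh10* and *Pcdh17* lay within the clustered range. Of the 18 regions 12 were higher in *MommeD43* NSCs, 7 beyond counting error, against 66.0% and 27.4% of all listed regions, and the median difference was 0.16. The shares over all regions were not matched for level. The 7 include 4 overlapping windows at the *Pcdh7* start, which share reads, so they are not 7 separate places. The others lay at *Pcdh9* and *Pcdh10*. At the *Pcdh7* start the 4 overlapping windows had 8.78 to 9.08 in wild-type cells and 9.03 to 9.34 in *MommeD43* cells, with differences of 0.25 to 0.27. At the *Pcdh17* start all 4 windows were slightly lower in *MommeD43* cells, the most by -0.04. A further region inside *Pcdh17* had a difference of 0.13, within counting error. The single genes thus lay on both sides of 0, but no region of this list was lower beyond counting error. *Pcdh9* had the largest difference of this list, 0.42, at a region inside the gene with 6.38 in wild-type cells and 6.80 in *MommeD43* cells. *Pcdh8* had 9.02 and 8.97, *Pcdh10* had 7.60 and 7.89 at the higher of its 2 regions, and *Pcdh15* had 7.85 and 7.94 at its start. Inside *Pcdh15* a further region had 6.71 and 6.56, and its difference of -0.15, within counting error, was the lowest of this list.

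Of 9 giant and seven-pass cadherins, *Fat1* alone had a region, with 8.38 in wild-type cells and 8.58 in *MommeD43* cells. Of 17 factors known to act on the clustered protocadherins, 2 had a region. *Lrif1*, which encodes a partner of SMCHD1, had 8.67 and 8.85 at the higher of its 2 regions, and the region counted for *Trim28*, which lies in an upstream transcript of that gene close to *Zbtb45*, had 8.68 and 8.91. Other gene families that lie in clusters gave a contrast in level. Of 1615 olfactory receptor, vomeronasal receptor, keratin and other genes of such families, 24 were overlapped by 24 regions, with medians of 6.02 in wild-type cells and 5.86 in *MommeD43* cells, below those of the protocadherins. In that list 7 of 24 regions were higher in *MommeD43* NSCs, 1 beyond counting error (at *Olfr38*), and 2 were lower beyond counting error (at *Olfr195* and *Vmn2r76*), against 66.0%, 27.4% and 4.23% of all listed regions. Those shares were not matched to the low level of this list. Among the 620 other regions near the protocadherin level, 54.5% were higher in *MommeD43* NSCs. The other genes of the list with a region were *Olfr94*, *Olfr95*, *Olfr290*, *Olfr303*, *Olfr346*, *Olfr393*, *Olfr414*, *Olfr453*, *Olfr568*, *Olfr576*, *Olfr577*, *Olfr596*, *Olfr790*, *Olfr1183*, *Olfr1295*, *Olfr1344*, *Olfr1351*, *Olfr1408*, *Vmn2r7*, *Vmn2r114* and *Krt10*, and their values ranged from 4.82 to 8.84 in wild-type NSCs.

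The levels beside the locus were lower before it and higher after it. The 2 listed regions before *Pcdha1* had 6.32 and 6.41 in wild-type and 6.35 and 6.39 in *MommeD43* NSCs, below every protocadherin region in both genotypes. After the gamma cluster, the region at *Spry4* had 9.27 in wild-type cells and 9.32 in *MommeD43* cells, above every protocadherin region. The region after it, at *Arhgap26*, had 8.97 in wild-type cells. The differences of these 4 regions, between -0.02 and 0.04, were within counting error.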

How the data were processed

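The authors trimmed reads with Trim Galore 0.4.4, mapped them with Bowtie2 2.3.4.1 to GRCm38.p6 and counted extended reads in SeqMonk over published peaks widened by 5000 bp, normalized by total library size, log2-transformed and merged 3 replicates per genotype. They deposited these log2 values, 1 column for each genotype. Values for single libraries and for whole cell extract were not used here, so no test, SD between lines or result without a line could be given.

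Products of reads over 3 libraries under 10000 were whole within 0.05, with 0 reads entered as 0.9, in 14 of 14 wild-type and 29 of 29 *MommeD43* low values above the lowest. The lowest value then gives the mean log2 library factor (0.46 and 0.68), reads per library and the counting SD. The depth of *MommeD43* libraries was on average 85.7% of that of wild-type ones. Local fits spanned a share of 0.3 of the 2824 regions whose wild-type value exceeded 4. Functions were tested on simulated reads.

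A cluster spans all bases of its genes in GENCODE M21. Each protocadherin region is named, each listed gene with a region, and otherwise the regions nearest in level. The nearest regions beside the locus were added to that rule. Members and lists were chosen with earlier results of these data known. The software was Python 3.11.15 with Numba 0.67.0, NumPy 2.4.6, SciPy 1.17.1, statsmodels 0.14.6, pandas 2.3.3 and Matplotlib 3.10.9.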

Additional observations from a re-analysis of the deposited data

How the results depend on the processing

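No paired analysis was possible because the columns hold 1 merged value per genotype, and leaving out a replicate could not be run for the same reason. The gamma cluster has no listed region and hence no value under any setting. Of 59 alternatives computed, 51 differed from the reported value by no more than counting error (counts of regions, by no more than 1.5 times), 8 differed by more and 0 reversed a direction. For 19 of the 51 the value could not change, since all 10 regions pass the filters on level and position or the setting keeps the same region or sign, so 32 could have differed. Counting error is wide beside the median differences, which did change in size. With the median over all listed regions subtracted, they fell from 0.10 to 0.03 over the locus and in alpha, from 0.08 to 0.01 between alpha and beta, and from 0.28 to 0.21 in beta. After a local fit on level the value between alpha and beta was 0.04, and with 1 region per overlap group the values over the locus and in alpha were 0.16. Of the 59 alternatives, 19 were chosen after seeing the data, among them those for the interval between alpha and beta and for regions beyond counting error. The median level was 4.003 (wild-type) and 4.14 (*MommeD43*) per kb of window, a change of unit, and 7.12 in wild-type NSCs with 1 region per overlap group. With 1 region per group, 4 of 5 regions were higher in *MommeD43*, against 7 of 10. With the median over all listed regions set to 0, 1 region was beyond counting error, against 3. The share of linear signal was 0.169% in wild-type cells with each base counted once, and without the 10 highest regions 0.188% (wild-type) and 0.187% (*MommeD43*). These shifts follow from what each setting removes or from its scale. Depth limits single regions: with 77.3 to 169 reads per library, a difference within its 95% counting interval (counting SD 0.09 to 0.13) was not detectable.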
